A study of Mus musculus with 10 samples.

Results

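These data describe wild-type T cells of the mouse spleen after 4 days of activation. All 5 samples titled as activated wild-type T cells at day 4, replicates 1 to 5, were taken, out of 10 samples in the series. They are called WT1 to WT5. Each came from a male Balb/c mouse aged 12 weeks, and the labels name each as a separate mouse. CD3+ cells were isolated and cultured on antibody to CD3 coated on the plate, with antibody to CD28 in solution. CD3+ cells include both helper (CD4) and cytotoxic (CD8) T cells. All 10 samples were activated, so there is no resting state to compare with. The remaining 5 samples came from KLF13 knockout mice and were not used. RNA was isolated with RNeasy columns, and the labels name amplification from an oligo(dT) primer.

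Antibody to CD3 stands in for antigen at the T cell receptor, and antibody to CD28 gives the costimulation that a naive T cell needs. Cells that receive both signals make interleukin-2 and its high-affinity receptor, grow, switch to a high rate of glycolysis and divide over several days. Helper cells can then take up programmes named Th1, Th2 or Th17 after their cytokines, while CD8 cells load granules with perforin and granzymes.

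RNA was measured on Affymetrix arrays. Because the deposited values lie on different scales, each value was turned into its percentile among 19048 genes on the same array, so that the median gene stands at 50 by construction. A percentile is a place in brightness. It depends on the probes of a gene as well as on its RNA, so the order of one gene against another is not an order of transcript number. As a floor, 964 olfactory receptor genes, which T cells are not known to use, were ranked in the same way. The highest 5% of them began at percentile 30.2 in WT1, 35.1 in WT2, 33.9 in WT3, 33.7 in WT4 and 33.9 in WT5. A gene above this floor in each of the 5 arrays is called above the olfactory reference here, as were 11237 genes (59.0% of all). In total 1286 genes (6.75%) reached percentile 90 or more in each array, called bright throughout here, and 4769 genes (25.0%) were above the reference in no array. The counts of list members below are to be read beside these shares of all genes. The reference is lenient, since single olfactory receptor genes reached percentile 88.6 in WT1 and 56.8 in WT5. In these bulk samples, fewer cells of a type and less RNA per cell cannot be told apart.

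The arrays came as an exon-level table with WT1, WT2 and WT3 and a gene-level table with WT4 and WT5. Median log2 signals were 5.21 in WT1, 6.43 in WT2 and 6.42 in WT3, and 4.18 in WT4 and 4.30 in WT5. Gene ranks correlated at 0.995 between WT2 and WT3 and at 0.993 between WT4 and WT5 (Spearman, across 19048 genes, which are not independent replicates). The correlation of WT1 with WT2 and WT3 was 0.978 and 0.976, and correlations between the tables lay between 0.946 and 0.951. The median gene differed by 1.48 percentile points between WT2 and WT3 and by 1.79 between WT4 and WT5, against 3.14 between WT1 and WT2 and 4.86 between WT2 and WT4. A gap between the tables holds the mice, the table and the way probe sets were summed, which cannot be told apart. A gap between WT1 and its table partners holds the mouse and whatever gave WT1 its own scale, which cannot be told apart. A uniform shift in log2 signal does not by itself move ranks.

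The label was checked first against the markers of activated T cells. The CD3 epsilon chain of the T cell receptor complex, Cd3e, lay at percentiles 98.4, 98.4, 98.4, 98.9 and 98.9 in WT1 to WT5. Cd4, the coreceptor of helper cells, lay at 98.7, 98.3, 98.4, 97.9 and 98.5. Cd8a, the coreceptor of cytotoxic cells, lay at 99.2, 98.6, 98.6, 99.4 and 99.3. Both coreceptors thus stood at 97.9 or above in each mouse. The alpha chain of the interleukin-2 receptor, Il2ra, which appears on stimulation, lay at 99.8, 99.7, 99.7, 98.95 and 99.3. Granzyme B (Gzmb), the granule protease of killer cells, lay at 99.9, 99.6, 99.6, 99.3 and 99.4. Gata3, the factor that sets the Th2 programme, lay at 99.5, 98.8, 98.7, 98.7 and 98.8. Mki67, a marker of dividing cells, lay lower and varied more, at 86.5, 83.0, 82.9, 92.7 and 89.1. Mki67 was lowest in WT2 and WT3 and highest in WT4, whereas the other markers named here were bright in each mouse.

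**Figure D1:**
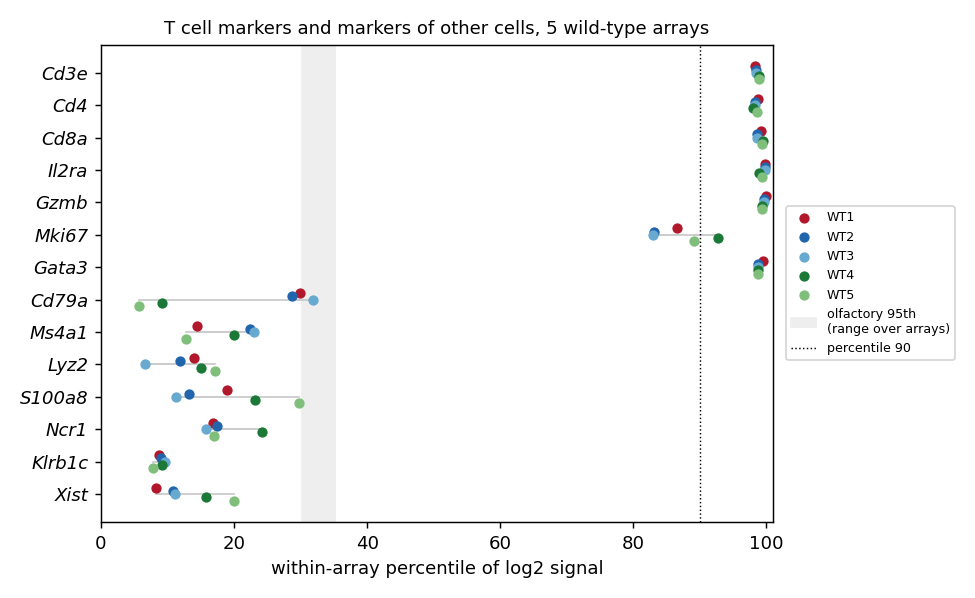
Each point is the within-array percentile (x axis, 0 to 100) of a gene (y axis) in one of the 5 wild-type arrays; the grey band spans the olfactory reference of the arrays (30.2 to 35.1) and the dotted line is percentile 90. The T cell and activation markers lie at 97.9 or above except Mki67 (82.9 to 92.7). Ms4a1, Lyz2, S100a8, Ncr1, Klrb1c and Xist lie under the band in each array, and Cd79a lies under its array's reference. The markers of other cells shown are low members of their lists. Members not shown, such as Cd79b (57.6 to 65.0) and Cd68 (59.3 to 66.8), lay above the reference.

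Markers of other cells were checked next. Of 12 B and plasma cell markers with a value 0 were bright throughout, 4 were above the reference and 6 were above it in no array, with array medians of 28.7 to 30.9. Ms4a1 (CD20) lay at 14.4, 22.5, 23.1, 20.1 and 12.8. Jchain, the joining chain of secreted antibodies, lay at 16.7, 8.1, 13.1, 25.0 and 15.9. The highest B cell marker was Cd79b, part of the B cell receptor, at 57.6, 63.9, 65.0, 60.5 and 60.2, while its partner Cd79a was under the reference in each array. The next were the kinase Blk (45.6 to 54.1 over the 5 arrays), the plasma cell proteoglycan Sdc1 (42.6 to 48.5) and the B cell factor Pax5 (36.1 to 44.1). Myeloid and dendritic cell markers had 4 of 16 above the reference, 6 in no array and array medians of 24.75 to 33.8. Lysozyme (Lyz2) lay at 13.9, 11.9, 6.7, 15.0 and 17.1. The dendritic cell receptor Clec9a lay at 8.2, 4.8, 4.3, 4.6 and 7.6. Cd68, a lysosomal protein of macrophages, was the highest at 59.3, 62.0, 62.1, 66.8 and 64.8. Cybb, an oxidase subunit of phagocytes, spanned 31.6 to 48.7, the chemokine receptor Cx3cr1 27.0 to 52.5, and Ly6g, a neutrophil marker with 2 exon-level probe sets, 10.5 to 67.2.

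Natural killer cell markers had 6 of 10 above the reference (60.0%, near the 59.0% of all genes). The 4 highest, Eomes, Klrd1, Klrc1 and Klrk1, are also made by CD8 T cells, and lay between 45.0 and 72.3. The NK receptor genes Ncr1, Klrb1c and Klra8 were under the reference in each array. Balb/c mice are known to lack Ly49H, so Klra8 does not bear on NK cells here. They are also known to lack the NK1.1 antigen, but the arrays measure RNA, and whether Klrb1c RNA bears on NK cells here was not tested. Ncr1 lay at 16.9, 17.4, 15.8, 24.2 and 17.0, Klrb1c (NK1.1) at 8.8, 9.1, 9.6, 9.1 and 7.8 and Klra8 (Ly49H) at 3.7, 5.7, 2.7, 2.9 and 1.4. Of the stromal and endothelial markers 6 of 12 were above the reference and 0 bright throughout. The collagen gene Col1a1, which T cells are not known to make, lay at 64.9, 62.0, 59.2, 54.7 and 57.0. Its relatives Col1a2 and Col3a1 spanned 50.7 to 62.3 and 43.0 to 51.4, and the adhesion molecule Pecam1, also found on leukocytes, 59.9 to 71.5. The endothelial receptors Kdr (18.0 to 29.6) and Tek (10.5 to 27.2) were under the reference. Erythroid markers had 3 of 5 (60.0%) above it, Slc4a1 (46.9 to 53.6), Klf1 (35.0 to 54.2) and Epor (34.3 to 44.9). Alas2 (32.7 to 50.4) and Tfr2 (27.5 to 45.2) were not above it throughout. Gamma delta and NKT markers had 4 of 4, Sox13 (53.7 to 60.8), Zbtb16 (51.3 to 57.6), Cd163l1 (40.9 to 52.1) and Blk, and basophil and mast cell markers had 4 of 8. Genes of other cell types such as Col1a1, Cd79b and Cd68 thus stood well above the reference, so a place above the reference is not read as expression. The label of male mice was checked too. Xist, the RNA of the silent X chromosome of females, lay at 8.3, 10.9, 11.2, 15.8 and 20.1, while the Y-linked translation factor gene Eif2s3y lay at 84.3, 93.1, 93.8, 88.5 and 85.9. The Y-linked demethylase genes Kdm5d and Uty spanned 69.1 to 73.4 and 68.6 to 78.0, so that 3 of 4 sex-linked genes were above the reference, and Ddx3y was not analysed here.

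By their lowest percentile over the 5 arrays, the 20 leading genes with a standard symbol lay at 99.74 or above in each mouse. Beta-actin (Actb) led with a lowest value of 99.99. Translation was represented by the elongation factors Eef1a1 (lowest 99.95) and Eef2 (99.93), the poly(A)-binding protein Pabpc1 (99.94) and the ribosomal proteins Rpl4, Rpl10, Rpl8, Rps20 and Rplp1. Among the 20 were also Cd53, a tetraspanin of white blood cells (99.95), B2m, the light chain of MHC class I (99.91), Laptm5, a lysosomal protein of blood cells (99.88), Cd3g, the CD3 gamma chain (99.86), and Srgn, the granule proteoglycan serglycin (99.86). Satb1, a chromatin organiser needed in thymocytes, was among them too (99.74). Glycolysis was represented by Aldoa (99.89), the aldolase, and Ldha (99.87), lactate dehydrogenase A, and the respiratory chain by the ATP synthase subunit Atp5b (99.75). Ccnd2, cyclin D2, which drives entry into the cell cycle (99.76), and Btg1, an antiproliferative gene of lymphocytes (99.79), were also among the 20. Rps20 rests on 1 exon-level probe set and Btg1 on 2.

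**Figure D2:**
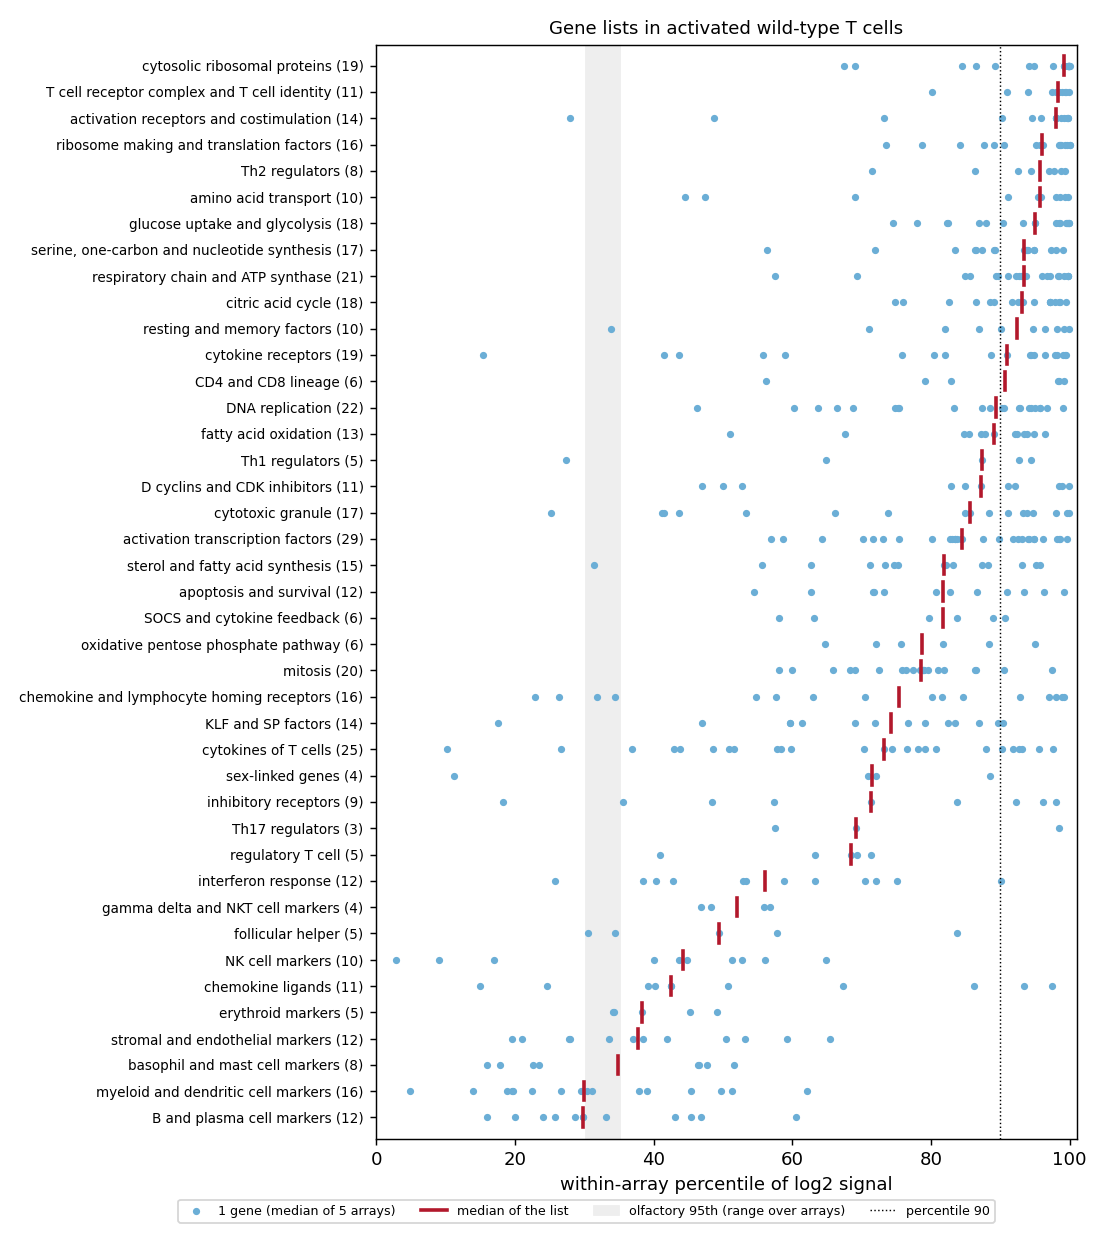
Each blue point is the median percentile over 5 wild-type arrays (x axis) of a member of a gene list (y axis, members with a value in parentheses), and the red bar is the median of the list. T cell receptor genes (98.3), activation receptors (98.0) and Th2 regulators (95.7) stand near the right edge, and markers of B cells (29.9) and myeloid cells (30.0) lie just left of the grey band of the olfactory reference.

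Of 11 T cell identity genes with a value 11 were above the reference and 9 bright throughout. Cd3g lay at 99.9, 99.9, 99.9, 99.9 and 99.9. The adhesion receptor Cd2 lay at 99.5, 99.4, 99.4, 99.3 and 99.4. Lat, the scaffold that the receptor's kinase phosphorylates, lay at 99.4, 99.5, 99.3, 98.5 and 98.6. The surface marker Thy1 spanned 94.7 to 99.2. The kinase Zap70 that acts on Lat lay at 92.4, 94.2, 93.8, 94.1 and 94.3. Cd247, the zeta chain that carries most of the receptor's signalling motifs, lay at 92.1, 89.7, 88.4, 90.9 and 93.5. Trat1, a transmembrane adaptor of the receptor complex, lay at 80.1, 94.2, 94.3, 68.5 and 63.1, where WT2 and WT3 stood above the other 3 arrays. These last 2 genes were the ones not bright throughout. Of 6 lineage genes 6 were above the reference and 3 bright throughout, Cd4, Cd8a and Cd8b1. Of these, Cd8b1, the beta chain of CD8, lay at 98.5, 96.3, 96.7, 98.9 and 98.7. The factor for CD4 fate, Zbtb7b, lay at 79.2, 78.4, 75.8, 88.7 and 91.2. The one for CD8 fate, Runx3, lay at 88.2, 80.3, 77.7, 82.9 and 85.1. Tox, a factor of lineage choice in the thymus, spanned 53.5 to 64.2.

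Of 14 activation and costimulation genes 13 were above the reference and 9 bright throughout. Tnfrsf9 (4-1BB), a costimulatory receptor made after stimulation, lay at 99.9, 99.6, 99.7, 99.5 and 99.7. Tnfrsf18 (GITR) lay at 99.5, 99.2, 99.2, 99.2 and 99.2. Slc3a2, the heavy chain CD98 of amino acid transporters, lay at 99.7, 99.9, 99.9, 99.3 and 99.2. Each of these 3 was bright in each mouse. The inducible costimulator Icos lay at 99.4, 98.3, 98.2, 98.8 and 98.8. Tfrc, the transferrin receptor through which growing cells take up iron, lay at 96.3, 94.7, 95.9, 95.7 and 95.9. At the other end stood the 2 ligands of the list. Cd40lg, with which helper cells act on B cells, lay at 35.8, 43.0, 50.2, 48.7 and 51.8, and Cd70, the ligand of CD27, was under the reference in each array at 27.9, 31.4, 29.0, 20.1 and 14.1. Cd44, the memory and activation marker, was uneven, at 73.2, 88.2, 88.8, 59.9 and 63.0.

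Of 9 inhibitory receptor genes 7 were above the reference and 3 bright throughout. Lag3, a receptor for MHC class II, lay at 98.1, 93.2, 92.7, 99.1 and 99.3. The CD28 competitor Ctla4 lay at 96.2, 90.4, 92.1, 98.7 and 99.04. Tigit, which competes with the receptor CD226, lay at 96.7, 91.2, 90.7, 92.3 and 95.7. For Lag3 and Ctla4 the arrays WT2 and WT3 were the lowest. Pdcd1 (PD-1) lay at 70.4, 80.8, 80.2, 65.9 and 71.3. Havcr2 (TIM-3) lay at 51.1, 41.1, 48.4, 59.2 and 45.6. Cd200, the ligand of an inhibitory receptor, spanned 62.1 to 92.2. Cd160 was under the reference in WT1, WT2 and WT3 and a little above it in WT4 and WT5, and Cd244a spanned 32.2 to 40.4. Of the list, only Lag3, Ctla4 and Tigit were thus bright throughout, and with ranks taken over genes with a standard symbol alone the count was 1.

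Of 19 cytokine receptor genes 18 were above the reference and 7 bright throughout. Il4ra, shared by the receptors for interleukin-4 and interleukin-13, lay at 99.5, 99.3, 99.4, 99.6 and 99.5. Il2rb, the signalling chain for interleukin-2 and interleukin-15, lay at 99.3, 98.3, 98.2, 99.3 and 99.3. The interleukin-21 receptor Il21r spanned 98.6 to 99.6. Both chains for interleukin-12 were bright throughout too. Il12rb1 lay at 98.7, 98.4, 98.2, 97.4 and 98.1. Il12rb2, the chain that Th1 cells keep, lay at 98.0, 94.1, 94.9, 93.5 and 95.4. The interleukin-7 receptor Il7r, which activation is known to lower, lay at 96.5, 89.6, 90.5, 98.4 and 98.8. The Th17 receptor Il23r was under the reference in each array, at 15.4, 12.6, 21.2, 19.99 and 15.2. The interleukin-9 receptor Il9r spanned 34.4 to 42.1. The interleukin-18 receptor chain Il18r1 differed between the tables, at 43.9, 54.0, 58.9, 82.4 and 73.0.

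Of 16 chemokine and homing receptor genes 12 were above the reference and 3 bright throughout. Ccr7, which guides naive and central memory cells to lymph nodes, lay at 99.2, 99.1, 98.9, 99.4 and 99.4. Selplg, the scaffold of selectin ligands, lay at 98.9, 97.7, 97.1, 99.3 and 99.4. The integrin chain Itgb7 lay at 97.0, 93.6, 93.3, 98.1 and 98.0. These 3 were the members bright throughout, and Cxcr4, which retains cells in marrow, spanned 88.2 to 98.7. Ccr8, a receptor of Th2 and regulatory cells with 2 exon-level probe sets, lay at 96.5, 86.5, 89.3, 93.8 and 92.8. Ccr4, of the same cells, lay at 92.1, 81.6, 82.2, 70.2 and 72.0. The Th1 receptor Cxcr3, with 1 exon-level probe set, lay at 77.3, 80.5, 79.4, 82.9 and 80.2. Ccr6, a receptor of Th17 cells, and Ccr3, of eosinophils, were above the reference in no array, with Ccr6 at 17.7, 18.7, 22.8, 25.6 and 24.8. The egress receptor S1pr1 and the tissue receptor Cxcr6 read higher in the gene-level table. S1pr1 lay at 63.2, 70.5, 68.1, 95.0 and 94.6. Cxcr6 lay at 52.0, 53.0, 57.7, 93.7 and 91.5.

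The cytokine genes are shown with the 200 bases before their RefSeq start sites, because this is where the calcium-responsive NFAT proteins, which bind sites such as GGAAAA, are known to act. The 4 sequences below belong to the helper cytokines whose percentiles are given next. They are written 5′ to 3′ on the strand of the gene (RefSeq, GRCm38.p6). Capitals mark the motif GGAAAA, searched on both strands (TTTTCC on the other). The AP-1 motif TGANTCA was searched too and is in none of the 4. Il2 is chr3:37125955-37126154 (minus strand), Il4 is chr11:53618666-53618865 (minus strand, the outer of 2 start sites), Il13 is chr11:53634703-53634902 (minus strand) and Ifng is chr10:118440846-118441045 (plus strand).
Il2: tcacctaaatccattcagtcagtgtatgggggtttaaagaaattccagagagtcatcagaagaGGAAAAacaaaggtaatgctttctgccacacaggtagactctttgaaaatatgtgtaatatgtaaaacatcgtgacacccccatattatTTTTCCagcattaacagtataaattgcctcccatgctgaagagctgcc
Il4: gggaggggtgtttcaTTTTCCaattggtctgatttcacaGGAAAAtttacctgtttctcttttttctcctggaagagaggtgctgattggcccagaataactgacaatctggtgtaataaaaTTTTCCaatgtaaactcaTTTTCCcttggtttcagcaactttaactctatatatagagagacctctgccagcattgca
Il13: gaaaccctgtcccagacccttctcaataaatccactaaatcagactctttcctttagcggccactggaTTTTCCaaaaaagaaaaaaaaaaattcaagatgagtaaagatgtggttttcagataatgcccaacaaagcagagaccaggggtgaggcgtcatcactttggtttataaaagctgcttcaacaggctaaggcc
Ifng: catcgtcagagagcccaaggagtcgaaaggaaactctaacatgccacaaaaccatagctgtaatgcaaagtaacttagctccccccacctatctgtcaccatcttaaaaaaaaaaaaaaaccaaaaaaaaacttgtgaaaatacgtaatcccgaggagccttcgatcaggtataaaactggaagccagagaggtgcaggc
The Il4 window held 4 matches, that of Il2 held 2, that of Il13 held 1 and that of Ifng held 0. The inner Il4 start site, not printed, held 0, as did the window of Csf2. The shorter core GGAAA was not counted, and copies of it stand unmarked in the Il13 and Ifng windows. Of 25 T cell cytokine genes with values 21 had a promoter in the table, and 8 of these (38.1%) held GGAAAA, against 5004 of all 27025 genes with a promoter (18.5%). A gene with several start sites was counted where any of them held the motif. The motif TGANTCA, whose matches cannot overlap those of GGAAAA, was held by 2 of the 21 (9.52%) and by 6.36% of all genes. A match is a description of letters and not of binding.

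Of the 25 cytokine genes 20 were above the reference and 2 (8.0%) were bright throughout, near the 6.75% of all genes. The first was Ltb, a subunit of the membrane lymphotoxin, which lay at 96.5, 97.5, 96.5, 98.1 and 98.1. Tgfb1, the suppressive cytokine TGF-beta, lay at 97.6, 95.6, 93.6, 95.0 and 95.7. Penk, the enkephalin precursor that T cells make on activation, lay at 93.1, 98.7, 98.4, 90.1 and 85.9 and rests on 2 exon-level probe sets. Of the other cytokines many lay under percentile 90 in each mouse, as the values below show.

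The Th2 cytokine Il13 lay at 96.8, 90.3, 90.8, 74.9 and 70.4. Il24, an interleukin-10 family cytokine that Th2 cells make, lay at 99.8, 92.7, 93.8, 88.9 and 73.4. Il4, which drives the Th2 programme, lay at 75.8, 60.6, 57.7, 48.6 and 40.7. WT1 was the highest array for each of these 3. Il5, the eosinophil growth factor, lay at 65.4, 50.9, 51.9, 33.5 and 25.9. For these 4 genes WT1 was the highest array and WT5 the lowest. Between WT4 and WT5, which share a table, WT4 was higher by 1.25 log2 units for Il24, 0.40 for Il4, 0.36 for Il13 and 0.21 for Il5. The median over all genes was -0.05. Il5 was under the olfactory reference in both of these arrays. Il10, which many helper cells make to limit inflammation, lay at 66.8, 35.8, 45.6, 64.6 and 51.6 and was also higher in WT4 than in WT5, by 1.23. Basophils and mast cells also make interleukin-4 and interleukin-13, and some of their markers differed between the same arrays. Of that list 5 of 8 members lay more than 5 points higher in WT1 than in both WT2 and WT3 (12.3% of all genes did) and 0 lower (11.9%). Array medians of the list were 38.9 in WT1, 29.0 in WT2, 29.1 in WT3, 46.8 in WT4 and 34.8 in WT5. Its gene of widest range was Cpa3, a mast cell protease, at 69.8, 46.4, 46.1, 59.4 and 38.8, while the defining markers Mcpt8 and Ms4a2 were under the reference in each array. The basophil factor Gata2 spanned 48.6 to 59.0, Kit, lowest in WT1 and highest in WT5, 45.3 to 58.7 and the histamine enzyme Hdc 38.0 to 47.5. The part of these cells in the cytokine values was not tested.

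Ifng, the Th1 cytokine, took another order. It lay at 87.9, 96.6, 96.3, 60.1 and 60.4, with WT2 and WT3 above WT1 and all 3 above WT4 and WT5. Csf2 (GM-CSF) lay at 73.3, 91.9, 91.1, 53.3 and 52.7. The T cell growth factor Il2 lay at 43.7, 68.6, 67.7, 27.2 and 25.3. Tnfsf11 (RANKL) lay at 76.5, 89.4, 86.6, 62.2 and 69.0. Each of these 4 genes was higher in WT2 and WT3 than in WT1, and lowest in the 2 arrays of the gene-level table. Of the 25 cytokine genes 10 lay more than 5 points higher in WT1 than in both WT2 and WT3 (12.3% of all genes did). More than 5 points lower in WT1 lay 8 of the 25 (11.9% of all genes). These comparisons among arrays were chosen after the values had been seen and carry no test.

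Il21, a cytokine of follicular helper cells, lay at 98.0, 91.2, 91.8, 89.1 and 92.5. The Th17 cytokine Il17a lay near the middle, at 60.8, 45.4, 43.9, 58.9 and 58.3. Its relative Il17f lay at 29.8, 36.9, 33.9, 51.5 and 48.7. Tnf lay at 82.7, 75.4, 81.1, 73.8 and 80.7. Il3 was above the reference in no array and Il6 only in WT3, with Il6 at 26.7, 26.9, 35.7, 2.5 and 1.7.

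**Figure D3:**
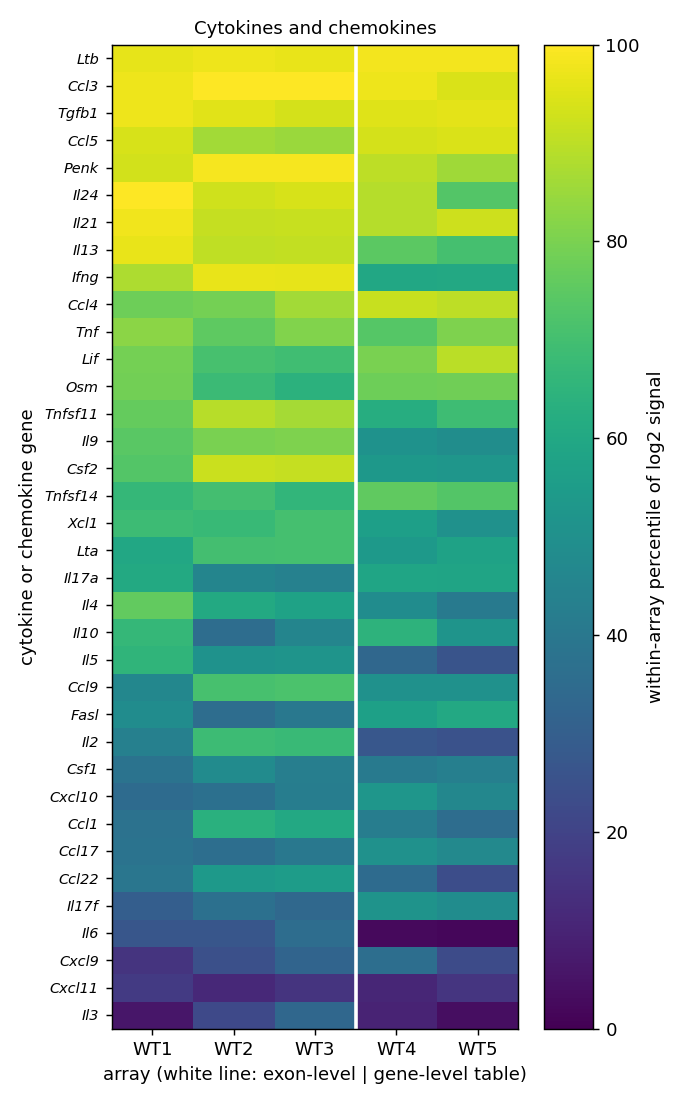
The colour gives the within-array percentile (0 to 100) of each cytokine or chemokine gene (rows, ordered by median) in the 5 wild-type arrays (columns). Ltb, Ccl3 and Tgfb1 are bright in each column, Il24 is brightest in WT1 (99.8), and Ifng stands at 96.6 in WT2 against 60.1 in WT4.

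Of 11 chemokine genes 8 were above the reference and 1 (9.09%) was bright throughout, beside 6.75% of all genes. That gene was Ccl3 (MIP-1 alpha), an inflammatory chemokine, at 97.5, 99.7, 99.8, 97.3 and 94.3. Its neighbour Ccl4 lay at 77.9, 79.1, 86.2, 91.5 and 90.1. Ccl5 (RANTES), made late after T cell activation and known as a target of KLF13, lay at 93.9, 86.1, 85.2, 93.4 and 94.3. For Ccl5, WT2 and WT3 were the lowest arrays. Xcl1 (lymphotactin) lay at 68.7, 67.3, 70.7, 56.6 and 50.7. Cxcl9, induced by interferon gamma, spanned 15.0 to 36.0. The interferon-induced chemokine Cxcl11 was above the reference in no array, at 17.1, 11.7, 15.0, 10.7 and 15.3. Ccl1, a ligand of CCR8 made by Th2 cells, was uneven at 37.5, 63.5, 60.4, 42.5 and 35.6, with WT2 and WT3 above the other 3 arrays.

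Cytotoxic granule genes included bright and dim members. Of 17 genes 13 were above the reference and 5 were bright throughout. Srgn lay at 99.99, 99.95, 99.96, 99.86 and 99.88. Nkg7, a granule membrane protein, lay at 98.1, 97.9, 97.4, 99.1 and 98.9. Gzmb was given above, and the protease cathepsin W (Ctsw) spanned 86.5 to 97.7. Serpinb6b, a serine protease inhibitor, lay at 98.5, 94.6, 93.8, 91.3 and 93.1. The lysosomal membrane protein Lamp1 lay at 91.1, 91.0, 90.1, 93.7 and 93.8. With Srgn, Gzmb and Nkg7 these make the 5 genes bright throughout. Prf1 (perforin) lay at 84.9, 76.7, 78.3, 93.3 and 92.0. Granzyme A (Gzma), the tryptase, lay at 93.2, 70.3, 71.4, 99.2 and 99.01, lowest in WT2 and WT3. Gzmk, a granzyme of memory CD8 cells, was under the reference in each array at 20.6, 25.1, 23.9, 30.9 and 28.0.

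Granzymes C to G, which are close copies of each other that probes may not tell apart, varied widely between mice. Gzmc lay at 82.2, 73.8, 75.7, 71.3 and 66.4. Gzmd lay at 73.8, 65.0, 66.2, 67.1 and 42.9. Gzme lay at 53.3, 54.8, 63.5, 37.0 and 19.0. The gap between WT4 and WT5 was wide for the last 2. Gzmf lay at 58.4, 41.5, 46.7, 39.9 and 22.6. Gzmg lay at 44.5, 39.0, 49.0, 41.1 and 22.2. WT5 was the lowest array for each of these 5 genes. Between WT4 and WT5, WT4 was higher by 2.05 log2 units for Gzmd, the largest such difference of all 19048 genes, and by 0.75, 0.67, 0.67 and 0.41 for Gzmg, Gzme, Gzmf and Gzmc. Gzmb stood level in the same mice, at the percentiles given above. Of the whole list 8 of 17 genes lay more than 2 points higher in WT4 than in WT5 and 0 lower, beside 22.8% and 23.1% of all genes.

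Of 8 regulators of the Th2 programme with a value 8 were above the reference and 5 bright throughout. Irf4, which the receptor signal induces, lay at 99.6, 99.3, 99.4, 97.7 and 98.0. Its partner Batf lay at 97.8, 95.9, 97.0, 97.3 and 96.6. Stat6, which carries the interleukin-4 signal, lay at 97.9, 97.8, 97.8, 96.6 and 96.9. Gata3 was given above, and the AP-1 member Junb spanned 76.0 to 89.96. Maf, an activator of Il4 with 2 exon-level probe sets, lay at 72.9, 61.9, 61.6, 72.7 and 71.5.

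Of the 5 Th1 regulators with a value 4 were above the reference and 2 bright throughout. Stat4, which carries the interleukin-12 signal, lay at 94.4, 92.8, 93.4, 97.3 and 96.6. Irf1, induced by interferon gamma, lay at 92.1, 92.3, 92.6, 97.9 and 97.2. These 2 were the members bright throughout. Tbx21 (T-bet), the Th1 master factor, lay at 88.3, 88.4, 87.3, 85.2 and 85.5, under percentile 90 in each mouse and within a narrow range. Eomes, its relative in CD8 cells, lay at 64.8, 61.2, 62.0, 72.3 and 65.1, and the homeobox factor Hlx spanned 21.9 to 43.2. Of 3 Th17 regulators 3 were above the reference and 1 was bright throughout, Stat3, at 98.4, 98.5, 98.3, 98.8 and 98.7. Rora lay at 65.0, 67.8, 69.1, 69.7 and 70.1, and the aryl hydrocarbon receptor Ahr spanned 55.7 to 61.6. Foxp3, which defines regulatory T cells, lay at 64.0, 74.7, 71.3, 70.7 and 73.5, and of the 5 regulatory T cell genes 5 were above the reference and 0 bright throughout. The others were Ikzf2 (65.5 to 73.7), Ikzf4 (60.6 to 73.1), Lrrc32 (63.8 to 77.4) and Nrp1 (34.0 to 46.8). Of 5 follicular helper genes 3 were above the reference (60.0%, near the 59.0% of all genes) and 0 bright throughout. Their factor Bcl6 lay at 41.7, 47.0, 49.4, 73.9 and 77.5, higher in the gene-level table. The signalling adaptor Sh2d1a spanned 53.0 to 66.7, Cxcr5 24.0 to 52.2 and Ascl2 22.8 to 35.6, beside Cd200, given above.

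Of 10 genes of resting and memory cells 9 were above the reference and 4 bright throughout. Satb1 lay at 99.93, 99.95, 99.95, 99.78 and 99.74. Lef1, a partner of the Wnt pathway in naive cells, lay at 98.2, 98.0, 98.2, 98.2 and 98.1. Foxo1, which keeps homing genes on, lay at 97.0, 94.3, 94.5, 94.7 and 96.4. These 3 were bright throughout, and Dapl1 spanned 60.8 to 77.7. Id3, an inhibitor of E proteins, was the lowest, at 33.9, 16.2, 21.5, 48.6 and 53.7. Of 29 activation factors 29 were above the reference and 8 bright throughout. Hif1a, the oxygen-regulated factor that supports glycolysis, lay at 99.7, 99.5, 99.6, 99.5 and 99.6. Myc, the driver of growth, lay at 98.8, 98.8, 98.6, 96.1 and 96.2. Nr4a1, an early gene of receptor signalling, lay at 98.5, 96.3, 95.8, 99.1 and 99.2. These 3 were bright in each mouse. Nfkb2, of the noncanonical NF-kappa B pathway, lay at 98.1, 98.9, 98.6, 97.4 and 97.9. The AP-1 members Fos and Fosl1 were the lowest of the list. Fos lay at 55.3, 56.1, 57.0, 60.0 and 61.2. Fosl1, with 2 exon-level probe sets, lay at 58.7, 58.7, 61.0, 50.8 and 52.8.

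Of 14 genes for KLF and SP factors, zinc-finger proteins that bind GC-rich promoters, 13 were above the reference and 0 bright throughout. Klf13, the gene removed in the other arm of the study, lay at 69.0, 65.3, 64.2, 79.7 and 84.2 with 3 exon-level probe sets. It was higher in the gene-level table than in the exon-level one. Sp3 lay at 89.4, 90.4, 90.9, 90.6 and 90.02. Klf6 lay at 85.8, 94.2, 94.0, 89.2 and 89.7. Klf2, which maintains quiescence and homing, lay at 86.9, 85.4, 82.6, 92.3 and 92.2. Klf7 spanned 82.5 to 84.2 and Klf4 46.2 to 55.0, while Klf12 was under the reference in each array.

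**Figure D4:**
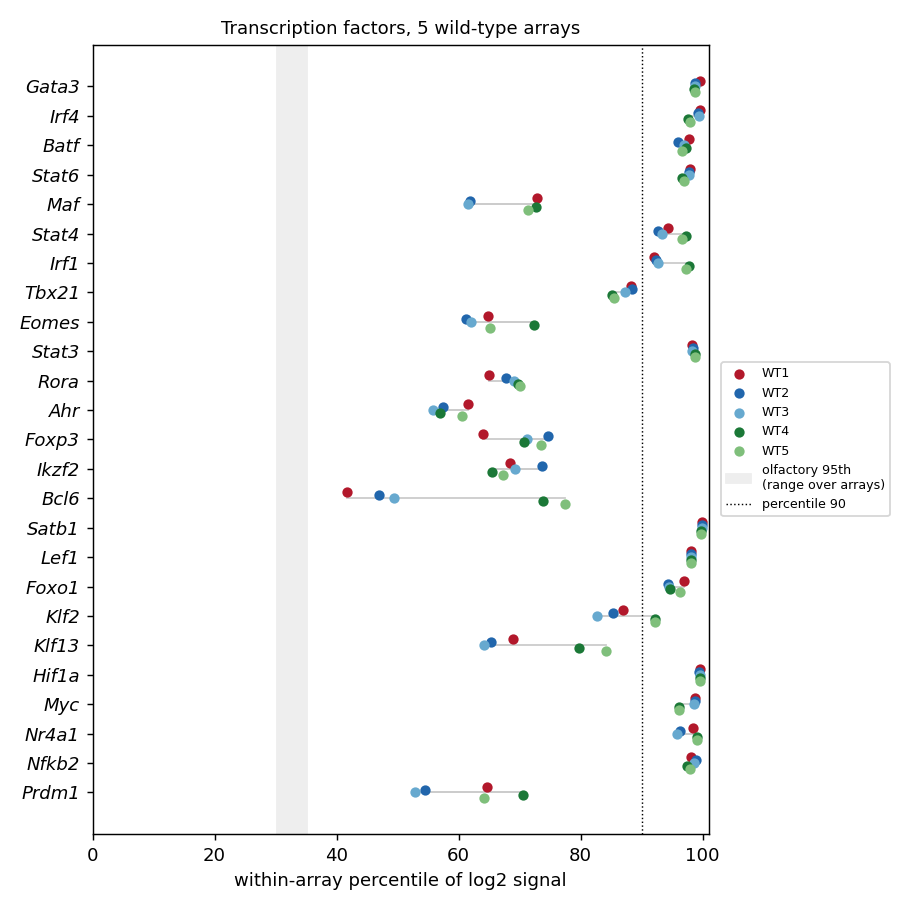
Each point is the within-array percentile (x axis) of a transcription factor gene (y axis) in one of the 5 wild-type arrays, with the grey band of the olfactory reference and a dotted line at percentile 90. Gata3, Irf4, Batf and Stat6 lie above 95 in each array, Tbx21 between 85.2 and 88.4 and Foxp3 between 64.0 and 74.7, while Bcl6 and Klf13 spread between the tables.

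Genes of the cell cycle were above the reference nearly throughout. Of 22 DNA replication genes 21 were above the reference and 7 bright throughout. Pcna, the sliding clamp of DNA polymerase, lay at 98.9, 98.99, 98.98, 99.1 and 98.6. The helicase subunit Mcm6 lay at 97.0, 94.9, 94.8, 97.4 and 96.7. Rrm1, a subunit of ribonucleotide reductase, lay at 97.2, 95.8, 94.8, 96.5 and 94.7. These 3 were bright throughout, as was Mcm7 (94.0 to 96.0). Ccne2, cyclin E2, was the lowest at 52.1, 46.1, 52.8, 46.3 and 33.3, after Gins1 (59.0 to 64.0). Of 20 mitosis genes 20 were above the reference and 1 (5.0%) was bright throughout, near the 6.75% of all genes. That gene was Top2a, the topoisomerase that untangles chromosomes, at 97.5, 96.5, 96.6, 98.7 and 97.5. Cyclin A2 (Ccna2) lay at 90.5, 83.9, 83.2, 93.6 and 90.6. The spindle protein Tpx2 lay at 89.3, 81.8, 82.7, 91.9 and 86.3. Both were lowest in WT2 and WT3. Cenpe, a kinetochore motor, lay at 56.8, 54.7, 59.7, 65.1 and 58.0, and the survivin gene Birc5 spanned 52.3 to 69.0.

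Of the D cyclins, Ccnd2 lay at 99.95, 99.96, 99.96, 99.81 and 99.76. Ccnd3 lay at 91.1, 83.9, 85.5, 94.3 and 94.5. By contrast, Ccnd1, the form of many other tissues, lay at 45.4, 47.0, 46.3, 47.9 and 49.1. Their kinase Cdk4 lay at 98.5, 98.4, 98.3, 99.2 and 98.9. The kinase Cdk6 lay at 98.9, 99.2, 99.2, 95.4 and 94.8. Of 11 genes of this list 11 were above the reference and 3 bright throughout. The CDK inhibitor Cdkn1b (p27), high in resting T cells, lay at 82.9, 77.2, 76.0, 95.1 and 95.3, higher in the gene-level table. Cdkn2d (p19) spanned 87.9 to 97.1 and Cdkn2a 45.0 to 58.2.

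Mitosis genes differed together between mice of one table. WT4 was above WT5 in 20 of 20 mitosis genes, by 0.20 to 0.89 log2 units with a median of 0.49. WT4 had the higher percentile in 49.8% of all genes, and the median log2 difference of all genes was -0.05. In 19 of these 20 genes WT4 was more than 2 points higher and in 0 lower, beside 22.8% and 23.1% of all genes. Array medians were 86.55 in WT4 and 80.45 in WT5. DNA replication genes lay the same way, with 20 of 22 percentiles higher in WT4 and a median difference of 0.36. Between WT2 and WT3 the median differences of the 2 lists were -0.04 and -0.07. Within the exon-level table, 11 of 20 mitosis genes lay more than 5 points higher in WT1 than in both WT2 and WT3, and 0 lower, beside 12.3% and 11.9% of all genes. The kinase Plk1, for example, lay at 81.1, 63.0, 58.6, 86.3 and 81.0. With 2 mice on a scale there is no test of these differences.

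**Figure D5:**
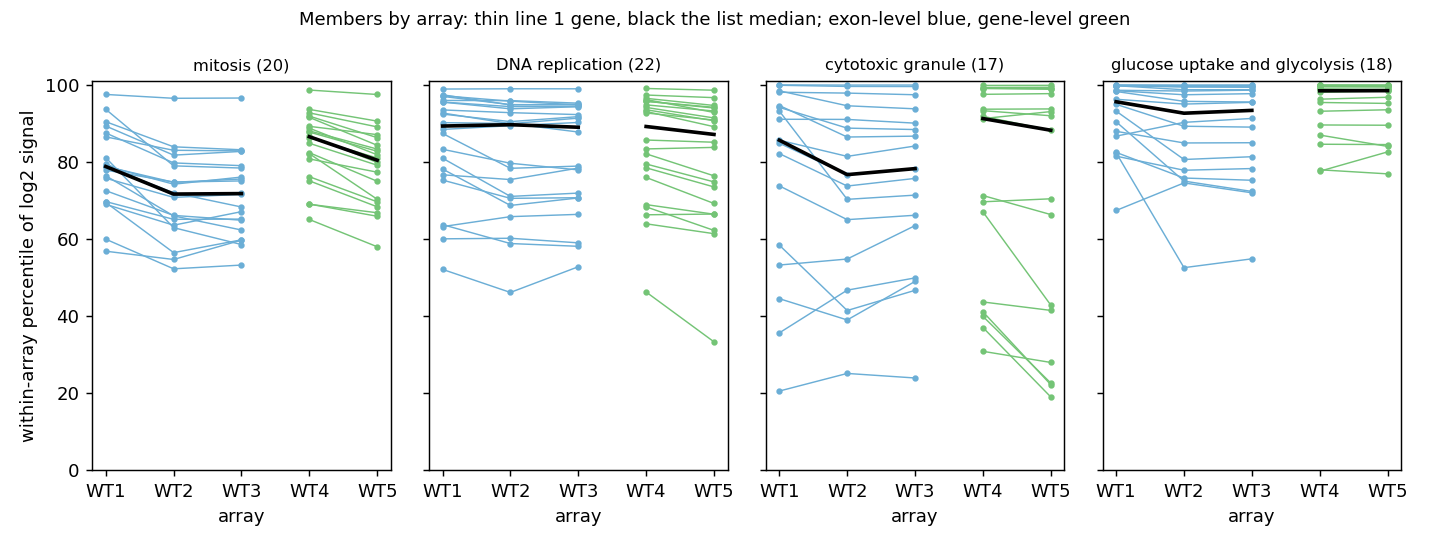
Thin lines join the percentiles (y axis) of each gene across the wild-type arrays (x axis) of a table, for 4 gene lists, and black lines give the list median. Mitosis genes have medians of 78.8, 71.7, 71.8, 86.55 and 80.45 in WT1 to WT5, and all 20 slope down from WT4 to WT5, while glycolysis genes keep medians of 98.5 in both.

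Of 18 genes for glucose uptake and glycolysis 18 were above the reference and 9 bright throughout, and the list's array medians lay between 92.65 and 98.5. Aldoa lay at 99.96, 99.92, 99.93, 99.89 and 99.90. Ldha lay at 99.9, 99.9, 99.9, 99.9 and 99.9. Both were among the 20 brightest genes. Phosphoglycerate kinase (Pgk1) lay at 99.8, 99.5, 99.4, 99.9 and 99.8. Pyruvate kinase (Pkm) lay at 99.8, 99.5, 99.5, 99.6 and 99.6. Near the upper end of the scale percentiles cannot differ by much, so the closeness of such values says little about the mice. The glucose transporter Slc2a1 (GLUT1), which moves to the surface on CD28 signalling, lay at 98.5, 97.4, 97.7, 98.9 and 98.9. The hexokinase Hk2 lay at 96.3, 95.0, 95.5, 93.2 and 93.5. The list's lowest genes by median were Ldhb and Eno3. Ldhb, the heart form of lactate dehydrogenase, lay at 67.4, 74.6, 72.0, 77.6 and 82.6. Eno3, the muscle enolase, lay at 81.5, 77.9, 78.3, 78.0 and 76.9. Aldoc was uneven, at 82.4, 52.6, 54.9, 89.6 and 89.5, with WT2 and WT3 low.

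Of 18 citric acid cycle and pyruvate dehydrogenase genes 18 were above the reference and 10 bright throughout, with array medians of 91.4 to 94.0. Malate dehydrogenase (Mdh2) lay at 99.6, 99.4, 99.5, 99.1 and 99.2. Idh3b, a subunit of isocitrate dehydrogenase, lay at 98.6, 98.7, 98.7, 98.1 and 98.1. Pdha1 (96.6 to 98.8) and Pdhb (90.8 to 98.6), of pyruvate dehydrogenase, were bright throughout, and the succinyl-CoA ligase subunits Sucla2 (72.3 to 81.5) and Suclg2 (72.8 to 75.9) were the lowest. Of 21 respiratory chain and ATP synthase genes 20 were above it and 10 bright throughout, among them the ATP synthase subunits Atp5b (99.8 to 99.9), Atp5a1 (99.6 to 99.8), Atp5c1 (99.3 to 99.8) and Atp5d (98.2 to 99.3). Ndufb8, of complex I, spanned 67.9 to 75.0. The lowest was Atp5j, with 1 exon-level probe set, at 57.5, 34.1, 48.9, 96.7 and 97.1, the widest gap between tables of this list. Fatty acid oxidation genes had 13 of 13 above the reference and 4 bright throughout. Hadhb, a subunit of the trifunctional protein, lay at 96.5, 96.7, 96.4, 95.1 and 95.3. Cpt1a, which admits fatty acids to mitochondria, lay at 78.2, 84.3, 84.8, 84.8 and 84.7. Hadha (93.4 to 94.5) and Etfdh (92.8 to 93.8) were bright throughout, while Etfb spanned 88.5 to 96.0 and Cpt2 63.6 to 69.5. The brain form Cpt1c was the lowest at 44.9, 50.1, 54.1, 51.0 and 51.9.

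Of 17 serine, one-carbon and nucleotide synthesis genes 17 were above the reference and 8 bright throughout. Paics, a purine synthesis enzyme, lay at 99.1, 99.3, 99.1, 98.8 and 98.5. Psat1, of serine synthesis, lay at 98.1, 98.1, 98.0, 93.6 and 92.6. Mthfd2, the mitochondrial folate enzyme of proliferating cells, lay at 97.4, 98.0, 97.9, 93.0 and 94.3. These 3 were bright throughout, as was Prps1 (91.0 to 97.2). Dhodh, of pyrimidine synthesis, was the lowest at 56.3, 60.4, 56.0, 57.3 and 55.4, after the cytosolic Shmt1 (67.6 to 72.4). Of 10 amino acid transport genes 9 were above it and 5 bright throughout. Slc7a5 (LAT1), the partner of CD98, lay at 99.4, 99.8, 99.8, 97.2 and 97.7. The glutamine transporter Slc1a5 lay at 98.6, 99.1, 99.1, 97.7 and 97.6. Slc38a2 spanned 96.4 to 98.5 and Slc43a1 38.9 to 47.7. The cystine transporter Slc7a11 was uneven, at 47.4, 60.8, 61.7, 20.4 and 23.8. Of 15 sterol and fatty acid synthesis genes 14 were above it and 3 bright throughout, the regulator Srebf2 (93.0 to 96.9), the desaturase Scd2 (90.01 to 99.1) and the citrate lyase Acly (92.8 to 94.6). Fdft1, of sterol synthesis, spanned 86.9 to 89.9 and the carboxylase Acaca 50.8 to 65.3. The sister desaturase Scd1, the liver form, was above the reference only in WT3, at 25.4, 31.4, 35.1, 32.7 and 23.5. Of 6 pentose phosphate genes 6 were above the reference and 1 bright throughout, Pgd, at 96.0, 93.6, 94.0, 96.0 and 95.0. The others were Tkt (85.4 to 90.6), Rpe (73.4 to 84.4), Taldo1 (65.9 to 76.8), Rpia (70.6 to 78.2) and Pgls (60.3 to 70.8).

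Ribosomal protein genes had the highest list median, 99.1 over the 19 with a value, of which 19 were above the reference and 12 bright throughout. The brightest were Rps20, Rpl4, Rps4x (99.5 to 99.99) and Rplp1. Of these, Rps20 and Rps4x rest on 1 exon-level probe set each. The 2 of lowest median also had few exon-level probe sets. Rpl5, with 1, lay at 33.3, 67.4, 59.4, 99.9 and 99.9. Rps18, with 1, lay at 69.10, 64.66, 59.43, 99.98 and 99.98. Of 16 genes for ribosome making and translation factors 16 were above the reference and 7 bright throughout. The initiation helicase Eif4a1 lay at 99.7, 99.8, 99.8, 99.6 and 99.4. The nucleolar protein Npm1 lay at 99.3, 99.7, 99.6, 97.7 and 98.1. The cap-binding factor Eif4e spanned 76.0 to 95.4 and Rrs1, with 1 exon-level probe set, 65.6 to 88.0.

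SOCS genes, which feed back on cytokine receptors, had 6 of 6 above the reference and 0 bright throughout. Cish, induced through STAT5, lay at 88.9, 88.5, 86.7, 97.8 and 97.8. Socs1 lay at 94.2, 73.9, 76.7, 90.7 and 91.6. Socs3 lay at 83.7, 76.8, 74.2, 98.7 and 98.6. Each of these 3 was lowest in WT2 and WT3. Socs5 spanned 77.7 to 82.2, Socs2 61.3 to 64.9 and Socs7 54.4 to 61.4. Interferon response genes had 10 of 12 above it and 0 bright throughout. Stat2, which carries the type I interferon signal, lay at 91.4, 89.3, 88.2, 91.1 and 90.1. The antiviral Mx1 lay at 22.2, 25.7, 25.8, 50.1 and 47.1. Irf7 spanned 72.4 to 83.9, Usp18 66.0 to 84.3, Bst2 67.7 to 73.1 and Rsad2 34.2 to 54.4. The list's array median was 45.1 in WT1 against 58.6 to 62.2 in the others. Survival and death genes had 12 of 12 above it and 3 bright throughout. The survival factor Mcl1 lay at 98.5, 99.03, 99.1, 99.3 and 99.2. The caspase Casp6 lay at 96.3, 95.0, 93.3, 96.7 and 97.5. Casp8, the caspase of death receptors, lay at 93.3, 90.8, 90.9, 94.3 and 94.6. These were the 3 bright throughout. Bcl2, a survival factor, lay at 88.0, 91.0, 89.96, 98.3 and 97.2, while the killers Bid and Bbc3 spanned 60.8 to 68.1 and 49.95 to 56.6.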

How the data were processed

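The deposited values are log2 signals that, per the submitters' processing notes, were made with RMA; neither its version nor a genome build is given in the sources used here. The deposited exon-level table holds 241576 probe sets, and 35556 make up the gene-level table; 0 columns were left without a sample. The labels name a kit that primes from the 3′ end for both. Probe sets that name exactly 1 gene in GEO's platform annotation were kept (212097 and 21789), with symbols updated through RefSeq. Exon-level probe sets of a gene were averaged (median of 8 per gene), the brightest gene-level probe set was taken, and 19048 genes in both tables were ranked within each array with Python 3.11.15, pandas 2.3.3, numpy 2.4.6 and scipy 1.17.1. The averaging of exon-level probe sets, the ranking and the calls against the reference were tested on simulated data with 1 gene-level probe set per gene. The choice of the brightest probe set, the updating of symbols and the motif search were not part of that simulation. No test between groups was run, because a single group is described, and the number of arrays limits the precision. Samples were grouped by their titles.

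The 41 gene lists hold 558 genes, of which 506 had values; the members and lists were chosen with earlier results of these data known. The rule for named genes took 20 genes always (Ddx3y, among them, was not analysed here, and another is not reported here), the 4 members of highest and the 2 of lowest median percentile of each list described, the 20 genes of highest lowest percentile, the 10 genes of widest spread within the tables among those with a standard symbol, a median percentile of at least 50 and at least 3 exon-level probe sets, and the 8 list members of widest gap between the tables. Outside the rule, chosen after their values were seen, are Aldoc, Ccl1, Ccnd3, Ccr4, Ccr8, Cd44, Cd79a, Cdkn1b, Cpt1a, Cxcr3, Foxo1, Gzma, Gzmc, Gzmf, Havcr2, Hk2, Icos, Il12rb2, Il17f, Il18r1, Il21, Il5, Lamp1, Ncr1, Pdcd1, Plk1, Prf1, S100a8, S1pr1, Serpinb6b, Slc2a1, Tfrc, Tnf, Tnfsf11 and Zap70. Alternatives were the summary of probe sets, the genes ranked, the reference, each table alone and leaving out each array.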

Additional observations from a re-analysis of the deposited data

Results flagged for a closer look

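For 298 percentiles and list medians, the array farthest from the others was set against Dixon's 95% critical value for 5 samples (0.71). Chance exceeds it in about 1 in 20 groups of 5 values drawn from a single population. These arrays come from an exon-level and a gene-level table, and WT1 has its own scale, so that rate need not hold here. In total 7 results (2.35%) exceeded the value, 4 of them through WT1. No cause was tested. Gata3, the Th2 factor, stood at 99.54 in WT1 against 98.68 to 98.78 in the other 4 mice. Tnfrsf18 (GITR) stood at 99.52 in WT1 against 99.17 to 99.22. Cybb, the phagocyte oxidase subunit, stood at 31.57 in WT1 against 43.92 to 48.73. The median of the interferon response list was 45.12 in WT1 against 58.62 to 62.16. Gzmd, granzyme D, stood at 42.86 in WT5 against 65.03 to 73.79. It was among the genes named for their spread within the tables, so its flag is not independent of that choice. The median of the DNA replication list was 87.14 in WT5 against 89.01 to 89.67. Il9r, the interleukin-9 receptor, stood at 34.40 in WT4 against 40.39 to 42.14.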

How the results depend on the processing

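The genes above the reference numbered 11331 to 11391 and those bright throughout 1303 to 1338 when 1 array was left out, against 11237 and 1286 with all 5. Each call must hold in every array used. Leaving out an array or taking a table alone can therefore keep or raise such counts but cannot lower them. Genes above the reference in no array (4769) came to 3171 with at least 3 exon-level probe sets required, a setting that left out 2698 genes. They came to 3159 with vomeronasal and taste receptor genes as the reference and 8345 with the 99th percentile of the olfactory receptor genes. With that 99th percentile, members above the reference came to 4 for chemokine ligands, 5 for the interferon response, 1 for B cell, 1 for myeloid, 2 for NK cell, 2 for gamma delta and NKT, 0 for basophil and mast cell, 0 for erythroid and 3 for stromal markers. In the gene-level table alone, 12 cytokine receptors, 3 chemokine ligands, 7 homing receptors, 8 granule genes, 2 KLF and SP factors, 2 mitosis genes, 6 D cyclin and CDK inhibitor genes, 3 SOCS genes and 1 interferon response gene were bright throughout, and 7 myeloid and 5 erythroid markers were above the reference. In the exon-level table alone, 6 cytokines and 11 ribosome making genes were bright throughout. With at least 3 exon-level probe sets, 1 inhibitory receptor was bright throughout and 2 myeloid markers were above the reference. So were 12 ribosomal protein genes, which were all that this setting kept of that list. Ranks over standard symbols left 1 inhibitory receptor bright throughout. The mean of gene-level probe sets left 1 Th1 regulator and 0 mitosis genes so. The median of exon-level probe sets left 2 myeloid markers above the reference, and the vomeronasal and taste reference gave 5 erythroid markers. Leaving out an array gave 0 to 1 KLF and SP factors bright throughout, the 1 without WT1. Causes were not tested. No paired analysis was possible because 1 group is described and no groups were compared.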

Other observations

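Outside the lists, the genes of widest spread between mice of the same table among those of middle or high rank included 2 of the kinetochore, the complex that ties chromosomes to the spindle. Spc25 lay at percentiles 75.2, 72.3, 65.6, 75.0 and 64.5 in WT1 to WT5. Ska3 lay at 66.2, 64.0, 71.6, 79.9 and 70.5. Both were higher in WT4 than in WT5, as were the mitosis genes. Cnr2, the cannabinoid receptor of immune cells, lay at 60.4, 55.8, 61.8, 74.9 and 63.4. Zhx2, a zinc-finger and homeobox repressor, lay at 60.5, 67.9, 67.9, 61.4 and 42.9, lowest in WT5. Tdgf1 lay at 73.4, 69.3, 67.8, 75.0 and 56.2, Ankrd55 at 76.2, 67.3, 70.5, 77.2 and 60.8 and Tmtc2 at 61.7, 51.8, 54.5, 63.1 and 48.8, with WT5 the lowest array for each. No test was made of these differences, and the genes were chosen for their spread.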
